A study of Auxenochlorella pyrenoidosa with 12 samples.

Results

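A set of 86 contigs of the green alga Auxenochlorella pyrenoidosa, also called Chlorella pyrenoidosa, stood lower than control by a similar amount at all 3 doses of an oxidant. After scaling of the libraries, every exposed library lay below every control for each of the 86, while deposited values overlapped in some. Contigs are transcript sequences assembled from reads, and the deposited table listed 29140 of them. The 86 were chosen by their measured values. A contig needed a mean of at least 2 FPKM (the share of a library's fragments, corrected for contig length), reached by 11520 contigs. The conditions that follow used libraries scaled as given below. The fall of a contig from control had to be at least 0.6 on the log2 scale at each dose, which left 252. The means of the 3 doses had to lie within 0.5 of each other, which left 143. The highest exposed library had to lie below the lowest control, which left 86. Levels and falls of these contigs from control are therefore a description, with no test.

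The cultures were unexposed or exposed to potassium peroxymonosulfate at 0.1, 0.2 or 0.5 of its EC50, where EC50 stands for the concentration with a median effect. These doses correspond to 1.70, 3.40 and 8.49 mg/L. Each of the 4 groups had 3 libraries of total RNA from whole cells. The sources used here give neither the day of RNA sampling nor whether the 3 libraries came from separate cultures, so spread between libraries may be technical.

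Peroxymonosulfate is a strong oxidant used in water treatment, where it is a source of reactive oxygen and sulfate radicals. Single-celled green algae meet oxidants with enzymes such as catalase, ascorbate peroxidase and superoxide dismutase, and the chloroplast is both a source and a target of reactive oxygen. A transcript can fall under stress because it is made less or degraded faster, and a steady-state level does not separate these. The table pairs no contig with a gene name, so the function of the 86 contigs is not known here and contigs are given by identifier. FPKM is a share of the library, and in bulk RNA a fall in all cells and a larger fall in some cells cannot be told apart.

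The summed FPKM of a library lay between 503295 and 561291, and the depth in fragments is unknown. Of the libraries, 4 were set apart by how their lowest values were spaced: replicate 2 of the controls and of 0.2 EC50, and replicates 2 and 3 of 0.1 EC50. For contigs between 0.01 and 1 FPKM, the most common ratio to control replicate 1 (a bin of 0.01 on the log2 scale) held 0.740% to 1.16% of contigs in these libraries and 1.62% to 3.79% in the other 7. These shares were graded and the cut between 1.16% and 1.62% is a choice. Control replicate 1, as the reference, has no such share. Values that rest on the 4 libraries are also given without them. Libraries were scaled by their median ratio to the mean library, with factors between 0.887 (0.1 EC50 replicate 2) and 1.12 (0.5 EC50 replicate 3).

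Summed over the 86 contigs, the controls held 1547, 1475 and 1700 FPKM. The sums were 633, 629 and 807 FPKM at 0.1 EC50, 744, 746 and 834 FPKM at 0.2 EC50 and 803, 874 and 978 FPKM at 0.5 EC50. Every exposed sum thus lay below every control sum, which the choice of the contigs requires of scaled values. The contigs took 0.3004% of the summed FPKM of a control library on average, and 0.130%, 0.150% and 0.164% at 0.1, 0.2 and 0.5 EC50. After scaling, an exposed library held between 42.4% (0.1 EC50 replicate 1) and 55.3% (0.5 EC50 replicate 3) of the mean control sum. None of the 86 contigs was listed at 0 in any of the 12 libraries.

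For the single contigs, the median level after scaling was 47.3% of control at 0.1 EC50, with quartiles of 37.1% and 52.9%. It was 45.95% at 0.2 EC50 (quartiles 37.4% and 52.9%) and 48.7% at 0.5 EC50 (41.4% and 54.8%). Over all 11520 contigs of at least 2 FPKM the medians were 102%, 98.4% and 102%. On the scale of log2(scaled FPKM + 1) the median differences of the 86 from control were -0.96, -0.97 and -0.86. Their SDs over the 3 libraries of a dose were 0.22, 0.06 and 0.08. A dose step from 1.70 to 8.49 mg/L thus went with medians that lay within 0.11 of each other, a closeness that the limit on the dose means helped to set. It also rests on the scaling. With deposited values the medians lay further apart, at -1.06, -0.95 and -0.74 in order of dose.

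**Figure D1:**
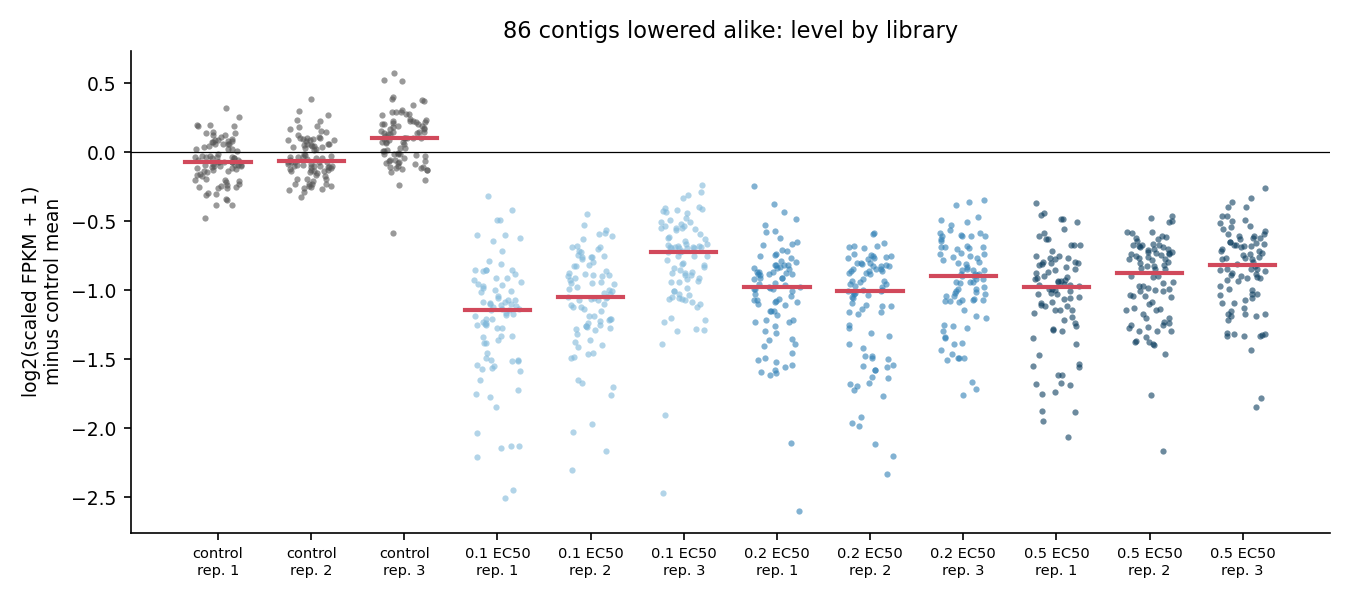
Level of each of the 86 contigs in each library, as log2(scaled FPKM + 1) minus the contig's control mean (vertical axis), by library (horizontal axis); each point is a contig and the red bar is the median. The medians of exposed libraries lay between -1.14 (0.1 EC50 replicate 1) and -0.72 (0.1 EC50 replicate 3), against -0.07 to 0.11 in the controls.

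TRINITY_DN2063_c0_g1_i3_2 had the highest control level of the 86 contigs. The controls held 360, 321 and 342 FPKM of it. The exposed libraries held 152, 129 and 151 FPKM at 0.1 EC50, 178, 221 and 205 FPKM at 0.2 EC50 and 210, 225 and 243 FPKM at 0.5 EC50. The controls and the exposed libraries did not overlap, and the lowest values were those of the lowest dose. Group means were 341 ± 19.9, 144 ± 12.9, 201 ± 21.96 and 226 ± 16.1 FPKM (SD, n = 3) in order of dose. After scaling, 45.7%, 58.3% and 60.5% of the control level remained at 0.1, 0.2 and 0.5 EC50.

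TRINITY_DN14631_c0_g1_i1_4 was the second by control level, with 79.5, 81.3 and 74.4 FPKM in the controls. It had 33.7, 35.6 and 46.7 FPKM at 0.1 EC50, 33.4, 37.8 and 42.4 FPKM at 0.2 EC50 and 34.0, 34.3 and 38.4 FPKM at 0.5 EC50. The exposed groups overlapped one another and not the controls, at 38.7 ± 7.04, 37.9 ± 4.50 and 35.6 ± 2.48 FPKM against 78.4 ± 3.57 FPKM (SD, n = 3). The remaining level after scaling was 53.4%, 47.4% and 41.3% in order of dose.

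The largest falls were found in contigs of lower level. TRINITY_DN13651_c0_g1_i1_3 fell the most at each of the 3 doses, from 6.56, 9.57 and 9.23 FPKM in the controls to 0.621, 0.964 and 0.639 FPKM at 0.1 EC50. It had 0.556, 1.02 and 2.83 FPKM at 0.2 EC50 and 1.91, 1.19 and 1.81 FPKM at 0.5 EC50. Its replicate 3 at 0.2 EC50 was the highest exposed library and still lay below the lowest control. The log2 differences from control were -2.38, -2.05 and -1.92 in order of dose, and 9.55%, 16.8% and 17.6% of the control level remained.

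TRINITY_DN13214_c0_g1_i1_3 had the second largest fall at 0.1 and 0.2 EC50. Its controls held 7.61, 9.29 and 13.9 FPKM, and its values were 1.44, 1.51 and 1.79 FPKM at 0.1 EC50, 1.57, 1.497 and 2.36 FPKM at 0.2 EC50 and 2.13, 3.27 and 3.79 FPKM at 0.5 EC50. The groups did not overlap with control, and 0.5 EC50 held its 2 highest exposed values. The remaining level was 16.8%, 17.4% and 27.3% of control. TRINITY_DN2864_c0_g1_i10_1 had the second largest fall at 0.5 EC50. It had 4.78, 4.58 and 9.26 FPKM in the controls, 0.537, 0.358 and 2.17 FPKM at 0.1 EC50, 1.85, 0.732 and 1.64 FPKM at 0.2 EC50 and 1.35, 1.14 and 1.76 FPKM at 0.5 EC50. Control replicate 3 stood at 9.26 FPKM, apart from the other 2 controls, and 0.1 EC50 replicate 3 was the highest exposed library. At these levels the added 1 FPKM of the log2 scale understates the fall. With 0.1 in its place the log2 difference of TRINITY_DN13651_c0_g1_i1_3 at 0.1 EC50 was -3.25, and that of TRINITY_DN2864_c0_g1_i10_1 at 0.5 EC50 was -2.12 in place of -1.60.

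**Figure D2:**
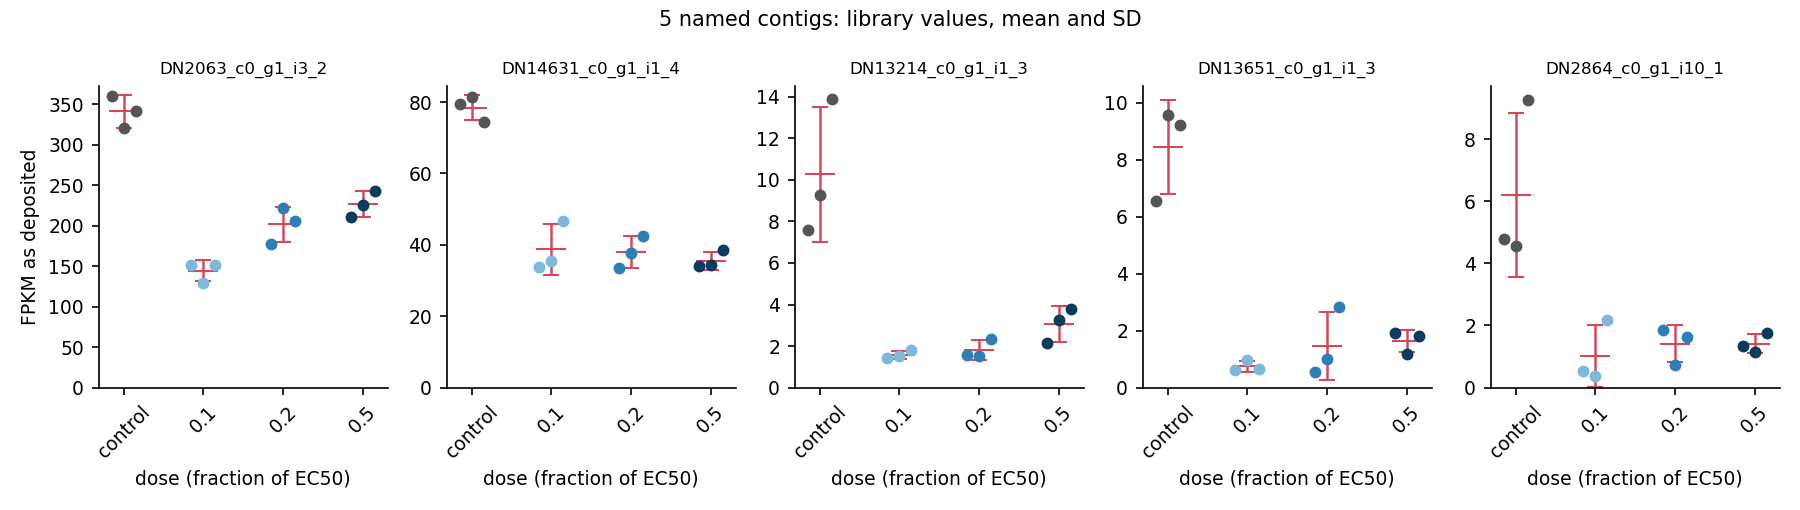
FPKM as deposited (vertical axis, from 0, with its own range in each panel) for the 5 named contigs by dose (horizontal axis); points are libraries in the order of their replicate numbers, red bars the mean and SD of 3 libraries. TRINITY_DN2063_c0_g1_i3_2 had its lowest mean at 0.1 EC50 (144 FPKM), while TRINITY_DN14631_c0_g1_i1_4 lay between 35.6 and 38.7 FPKM at every dose.

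The control level of the 86 contigs ranged from 3.19 to 341 FPKM with a median of 8.41 FPKM, against 7.42 FPKM over all contigs of at least 2 FPKM. Of the 86, 11 had under 5 FPKM in the controls, 35 had 5 to 10, 36 had 10 to 50 and 4 had 50 or more. A total of 36 contigs lay below 50% of control at all 3 doses, 12 lay at or above 50% at all 3, and 5 fell below 25% at any dose. The rank correlation between control level and the mean remaining share was 0.347 across the 86 contigs, a description of points from the same libraries. Contigs under 5 FPKM kept a median of 41.7%, 38.8% and 45.4% in order of dose, and those of 10 to 50 FPKM kept 49.6%, 50.01% and 48.7%. The remaining share was computed without the added 1 FPKM, but the rule used it, so that low contigs had to fall further to be chosen.

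**Figure D3:**
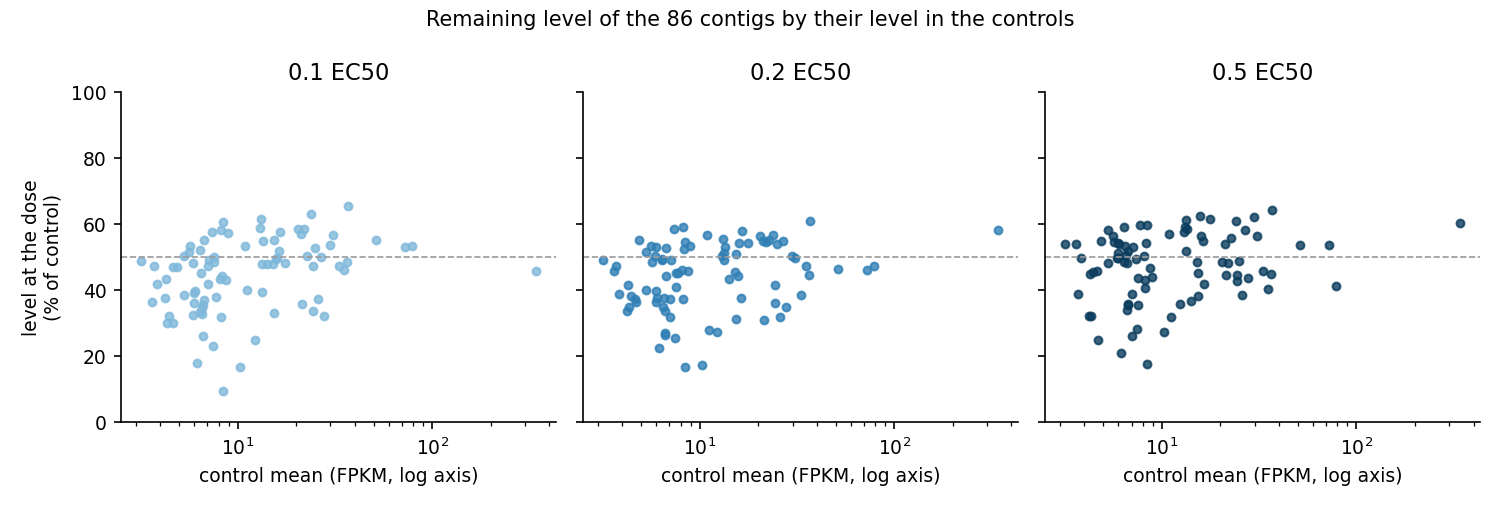
Level at each dose as a percentage of control after scaling (vertical axis) against the control mean in FPKM (horizontal log axis), 1 panel per dose and 1 point per contig; the dashed line marks 50%. The points lay between 9.55% and 65.6%, and contigs under 25% had control means of at most 10.3 FPKM.

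The 3 dose means of a contig differed by 0.25 on the log2 scale in the median, and by 0.04 to 0.496 over the 86 contigs. Within these limits 0.5 EC50 had the highest of the dose means in 49 contigs, 0.1 EC50 in 25 and 0.2 EC50 in 12. The lowest mean was that of 0.1 EC50 in 36 contigs, of 0.2 EC50 in 32 and of 0.5 EC50 in 18. Over all contigs of at least 2 FPKM, 0.5 EC50 had the highest dose mean in 39.4% and the lowest in 38.4%, against 57.0% and 20.9% of the 86. A further 82 contigs met every condition but had dose means 0.5 or more apart. In these, 0.5 EC50 had the highest mean in 85.4%, and medians of 24.6%, 26.4% and 48.6% of control remained at 0.1, 0.2 and 0.5 EC50. The 86 and the 82 contigs thus had similar median shares at 0.5 EC50, 48.7% and 48.6%. Both sets had to meet the same limit on the smallest fall, which helps to set this likeness, and it was not tested.

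Just inside the limit of 0.6 on the smallest fall were contigs with 0.611 and 0.623, and just outside it were contigs with 0.591 and 0.590. For the spread between doses the nearest values were 0.496 and 0.487 inside and 0.504 and 0.516 outside. The gap between the lowest control and the highest exposed library was 0.42 on the log2 scale in the median and 0.03 at the least. The rows just outside it had a gap of 0, with 12.5 and 12.3 FPKM in the control means and exposed libraries listed at 0. A gap of 0 means that the lowest control was at 0 too, so these control means rested on the remaining controls. The lowest mean over all libraries was 2.02 FPKM, and the next contig that met the other conditions had 1.99 FPKM. In all, 605 of 11520 contigs (5.25%) had all 9 exposed libraries below all 3 controls after scaling, and 666 (5.78%) had them above. With every sign turned, the rule picked 85 contigs that were higher at all doses by similar amounts.

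A linear model fitted to log2(FPKM + 1) of all 16732 contigs whose mean reached 1 FPKM (limma, all 12 libraries, values as deposited) covered all 86. At 0.1 EC50 it called 75 of them lower than control at a Benjamini-Hochberg adjusted p under 0.05, where 7.03% of all tested contigs were called lower. At 0.2 EC50 it called 75 (4.73% of all) and at 0.5 EC50 it called 54 (2.45% of all). In these unscaled values the median difference of all tested contigs from control was -0.09, -0.02 and 0.16 in order of dose. The counts at the 3 doses are therefore not on a like footing. After median-of-ratios scaling the same model called 73 at 0.1 EC50 and 77 at 0.2 EC50. The part of the offset was not tested beyond such reruns. With deposited values 50 were called at all 3 doses (0.873% of all) and 24 at 2 doses. A further 6 were called at 1 dose and 6 at no dose, as were 80.3% of all contigs. Since the contigs were chosen on these contrasts, nothing is read from these counts against the shares of all contigs. The 50 contigs were 58.1% of the 86 and 34.2% of the 146 contigs that the model called lower at all 3 doses. The 3 comparisons share the same 3 controls. Between doses it called 7 of the 86 higher at 0.5 than at 0.1 EC50 (16.8% of all) and 0 lower (2.46% of all, and 0 of the 86 at an unadjusted p under 0.05). Against 0.2 EC50 it called 1 higher (5.56% of all) and 0 lower (1.24% of all, and again 0 of the 86 unadjusted). The limit on the dose means chose the contigs on these differences too, so nothing is read from these counts either. Without the 4 libraries with other low-value spacing, which left 1 library at 0.1 EC50 that is assumed to vary like the others, 15 contigs were called at all 3 doses. Without 1 library at a time the count was 30, 27 and 24 without control replicate 1, 2 or 3, and 30, 19 and 33 without 0.5 EC50 replicate 1, 2 or 3.

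The choice was repeated with each library left out in turn, and the contigs picked from the other 11 were then read in the library that had not been used. Without control replicate 1, 2 or 3 the rule picked 115, 102 and 88 contigs. Of these, 77.4%, 92.2% and 85.2% had a higher value in the unused control than in any exposed library. The same was true of 12.6%, 13.4% and 14.7% of all contigs of at least 2 FPKM. For the 9 exposed libraries the rule picked 82 to 112 contigs, and 82.1% to 100% of these lay below every control in the unused library, against 28.6% to 37.4% of all contigs. The lowest share, 82.1%, was that of 0.1 EC50 replicate 3, where 92 of 112 contigs lay below every control. In the other 8 exposed libraries it was 93.9% or more. An unused exposed library was read against the same 3 controls that had helped to choose the contigs. An unused control was read against the same 9 exposed libraries. High shares are thus in part built in, and all contigs, which were not chosen this way, are not a like baseline. No test was run on these shares, since contigs are not replicates.

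**Figure D4:**
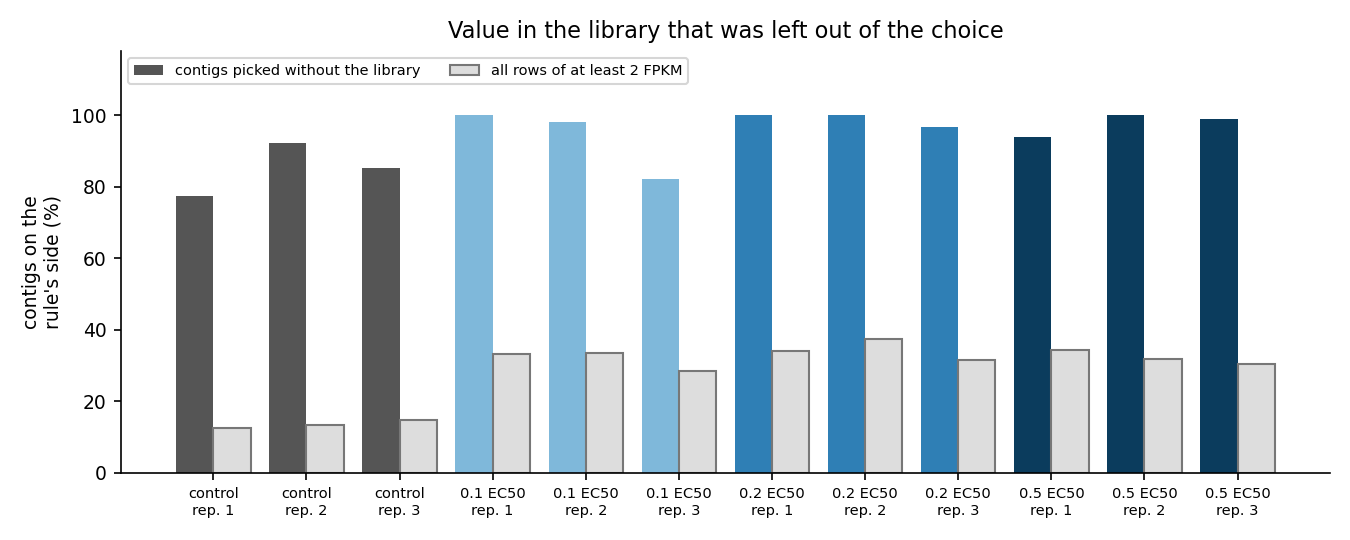
Share of contigs whose value in the unused library lay on the side the rule asks for (vertical axis, %), by unused library (horizontal axis); coloured bars are contigs picked from the other 11 libraries and grey bars all 11520 contigs of at least 2 FPKM. Coloured bars reached 77.4% to 92.2% for controls and 82.1% to 100% for exposed libraries, against 12.6% to 14.7% and 28.6% to 37.4%.

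Within the groups, the 86 contigs deviated together. The rule did not use replicate numbers. It did use the highest exposed and the lowest control value of each contig, so the choice was not independent of how single libraries deviate. At 0.1 EC50, replicate 3 was above the group mean in 75 of 86 contigs (87.2%) and the highest of the 3 libraries in 69. Replicate 3 was also the highest in 46 contigs (53.5%) among the controls and in 46 (53.5%) and 47 (54.7%) contigs at 0.2 and 0.5 EC50. It lay above the group mean in 67.4%, 68.6% and 74.4% of the 86 in these 3 groups. Of all contigs of at least 2 FPKM, replicate 3 was the highest of its group in 30.8% to 34.0% and lay above its group mean in 49.2% to 50.9%. The median deviation of replicate 3 from its group mean over the 86 contigs on the log2 scale was 0.11 for the controls and 0.23, 0.10 and 0.10 for 0.1, 0.2 and 0.5 EC50. Replicate 1 at 0.1 EC50 lay on the other side, with a median of -0.18 and 15 contigs above the group mean.

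A total of 45 of the 86 contigs (52.3%) had replicate 3 highest in 3 or 4 of the 4 groups, against 14.1% of all contigs of at least 2 FPKM. Among the 82 contigs lowered by unequal amounts the count was 50 (61.0%), and the difference from the 86 was not tested. For the 86 the count was 51 with deposited values, 50 with equal totals and 38 after quantile normalization. The contigs raised alike deviated the other way. In these, replicate 3 was the lowest library of its group in 41 of 85 contigs among the controls and in 62, 50 and 51 of 85 at 0.1, 0.2 and 0.5 EC50, and 0 of the 85 had it highest in 3 or 4 groups. Replicate 3 also had the most contigs at 1 FPKM or more among controls (18261) and at 0.1 (16866) and 0.2 EC50 (17446), and not at 0.5 EC50 (18419 against 18475 in replicate 1). Of the 4 libraries numbered 3, the one at 0.1 EC50 had the other low-value spacing. The part of either in the shared deviation was not tested. Nothing in the labels says that a replicate number marks a shared batch.

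**Figure D5:**
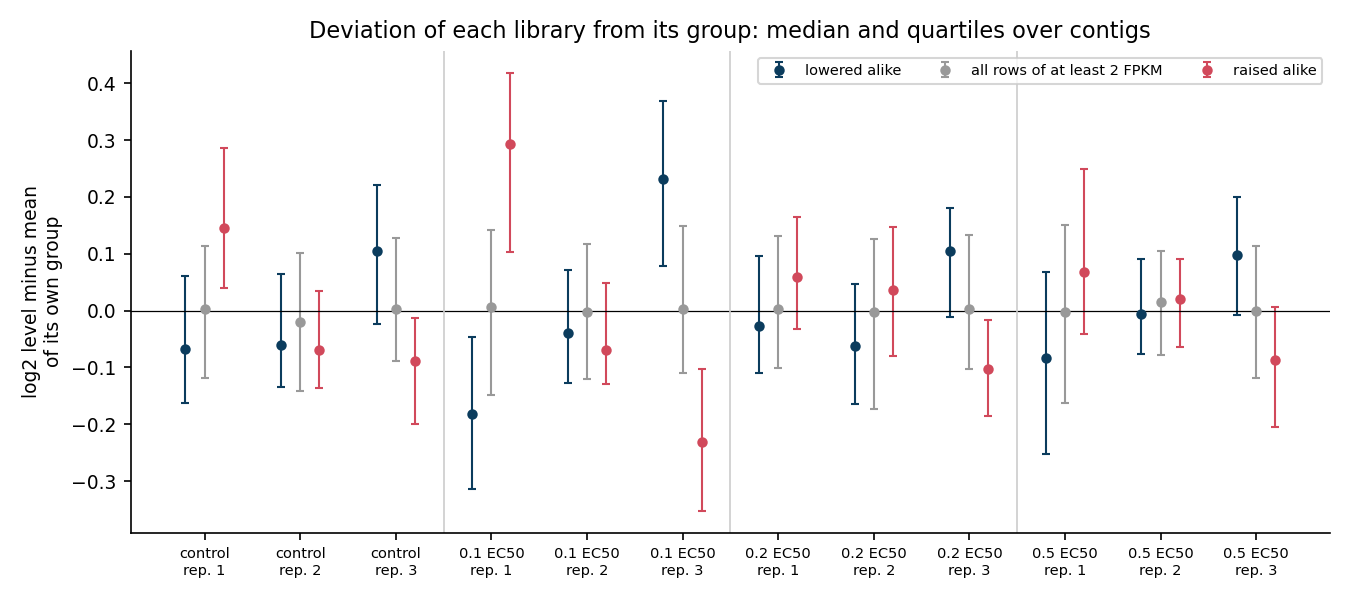
Deviation of each library from the mean of its own group on the log2 scale (vertical axis), by library (horizontal axis), as median and quartiles over the 86 contigs lowered alike (blue), the 85 raised alike (red) and all 11520 contigs of at least 2 FPKM (grey). In replicate 3 of each group the blue median lay above 0 (0.10 to 0.23) and the red one below it.

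The names of the contigs follow the pattern of the Trinity assembler, with a cluster, a gene and an isoform number, and carry a last number, 1 to 4, that no source used here explains. Of the 86 contigs, 27 ended in 1, 10 in 2, 30 in 3 and 19 in 4, which is 31.4%, 11.6%, 34.9% and 22.1%. Over all contigs of at least 2 FPKM the shares were 23.6%, 18.1%, 26.3% and 32.1%. The 82 contigs lowered by unequal amounts had 22, 3, 47 and 10 in the same order, and the 85 raised alike had 16, 20, 9 and 40. Median remaining levels were alike across the 4 numbers, between 44.0% and 52.2% of control at 0.1 EC50 and between 45.4% and 49.8% at 0.5 EC50. Isoform number 1 was carried by 63 of the 86 (73.3%) and by 70.3% of all contigs of at least 2 FPKM.

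All 86 contigs carried different Trinity gene names. In the whole table no gene name occurred more than once among contigs with the same last number, so contigs that share a gene name always differ in it. Over 2369 such pairs with at least 2 FPKM, the median correlation of their levels over the 12 libraries was 0.01 (quartiles -0.28 and 0.32). Their mean levels had a correlation of 0.06. A shared gene name therefore did not go with a shared pattern or level in this table. Of 52 tested contigs that share a gene name with one of the 86, limma called 3, 1 and 0 lower at 0.1, 0.2 and 0.5 EC50, and 0 at all 3 doses. At an unadjusted p under 0.05 these counts were 8, 4, 4 and 0 (15.4%, 7.69%, 7.69% and 0%), against 16.3%, 11.4%, 7.11% and 2.70% of all tested contigs.

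Contigs of the same Trinity cluster and the same last number had a median correlation of 0.10 over 1972 pairs (quartiles -0.23 and 0.42). For 15 of the 86 contigs the table held such neighbours with at least 2 FPKM, 23 in all. Of these 23, 6 (26.1%) had lower means than control at all 3 doses, 9 had higher means at all 3 and 0 fell by 0.6 or more at each dose. Over all contigs of at least 2 FPKM, 25.7% had lower means at all 3 doses. The neighbours are contigs that missed the rule, and reads may be split between similar contigs, so levels of contigs with close relatives are uncertain.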

How the data were processed

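Total RNA was made into Illumina TruSeq libraries, per the labels' protocols. The authors deposited 1 table of FPKM values, a unit known from the table's name, for 29140 contigs in 12 libraries. No source used here gives the assembler, aligner, estimator or filters. The dose in each title set the groups, with 3 libraries each. For the rule, each library was divided by its median ratio to the geometric means of the contigs above 1 FPKM in all libraries, and values were taken as log2(x + 1).

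Calls came from limma 3.58.1 in R 4.3.3 on log2(FPKM + 1) of deposited values, with a prior trend, 8 residual degrees of freedom and Benjamini-Hochberg adjustment over 16732 contigs. Both procedures were tested on simulated data. Plots used Python 3.11.15 with matplotlib 3.10.9.

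The members, the comparisons and the rule for named contigs were chosen with earlier results of these data known. That rule took the 2 largest falls at each dose, the 2 highest control levels and the Trinity gene with the most members, which was a tie of 86 and fell to the contig with the highest control level. With no gene names, no gene list was used, and no sequences were used here. Alternatives covered scaling, pseudocount, minimum mean, the limits of the rule, the prior trend, a replicate block and left-out libraries. Those for counts between doses, named contigs and replicate 3 were added after seeing the data.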

Additional observations from a re-analysis of the deposited data

Results flagged for a closer look

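The 86 contigs were chosen for dose means within 0.5 of each other, in the same libraries, so the calls between doses below are a description. Limma called 7 of them different between 0.5 and 0.1 EC50, all higher at 0.5 EC50, where 16.8% of all tested contigs were called higher. Between 0.5 and 0.2 EC50 it called 1 (5.56% of all called higher). Between 0.2 and 0.1 EC50 it called 0 of the 86 and 0 of all 16732 contigs. At an unadjusted p under 0.05, 5 of the 86 (5.81%) were higher and 1 (1.16%) lower at 0.2 EC50 there, against 11.2% and 2.61% of all. The 7 differences lay between 0.52 and 0.65 on the log2 scale of deposited values, with the largest in TRINITY_DN2063_c0_g1_i3_2. The contig called in both comparisons, TRINITY_DN1363_c0_g1_i5_3, was singled out after its values were seen. It was higher at 0.5 EC50 by 0.53 than at 0.1 EC50 and by 0.38 than at 0.2 EC50. In deposited values all 3 libraries at 0.5 EC50 were higher than any at 0.1 EC50 in 7 of the 7 contigs, and after median-of-ratios scaling in 4. In deposited values the median of all tested contigs was 0.25 higher at 0.5 than at 0.1 EC50, and that of the 86 was 0.30 higher. After median-of-ratios scaling or quantile normalization 1 contig was called between 0.5 and 0.1 EC50, with equal totals 4. Leaving out the 4 libraries of other low-value spacing gave 0. Without a minimum mean 2 were called. With 1 library left out 2 to 11 were called, the 11 without control replicate 3 or 0.5 EC50 replicate 1. Between 0.5 and 0.2 EC50 the scalings and the 4 left-out libraries gave 0 each, a minimum mean of 5 FPKM gave 2, and leaving out 1 library gave 0 or 1.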

How the results depend on the processing

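The rule picked 67 to 101 contigs under the other scalings (deposited, equal total, quantile), 86 with a pseudocount of 0.1, 125 with a minimum mean of 1 FPKM and 82 to 115 when 1 library was left out. Of the 86, 50 were picked again from deposited values, 52 with equal totals, 78 after quantile normalization and 67 with the other pseudocount. No minimum mean gave 224 contigs, a minimum of 5 FPKM 44, smallest falls of 0.4 and 0.8 gave 190 and 43, a spread of 0.3 between doses 55, and allowed overlap 143, as looser or stricter limits must. Leaving out the 4 libraries of other low-value spacing gave 130, of which 52 were among the 86, and the cause was not tested.

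The median log2 difference of the 86 from control at 0.2 EC50 was -0.87 after quantile normalization and -1.11 with a pseudocount of 0.1, which compresses low values less, and -1.02 to -0.89 with 1 library left out. At 0.5 EC50 it was -0.74 with deposited values, -0.77 with equal totals, -1.01 with a pseudocount of 0.1 and -0.96 to -0.83 with 1 library left out. At 0.1 EC50 it was -1.06 with deposited values, and -1.07 both with equal totals and with a pseudocount of 0.1. With deposited values and with equal totals the fall was thus smallest at 0.5 EC50, and the dose medians lay further apart than under the scaling of the rule. Without the 4 libraries the median difference was -1.13, -0.94 and -0.91 in order of dose.

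Of limma's calls, a minimum mean of 5 FPKM left 42 lower at 0.1 EC50 and 40 at 0.2 EC50, of the 44 contigs that reached it. Without the 4 libraries 19, 27 and 28 were called in order of dose and 15 at all 3 doses, with fewer samples. With 1 library left out the counts were 57 to 77, 45 to 78 and 19 to 59 in order of dose, and 19 to 56 at all 3 doses. The count at all 3 doses was 64 after median-of-ratios scaling and 70, against 50, with the replicate number as a block. The block moved the calls between 0.5 and 0.1 EC50 from 7 to 20 and those between 0.5 and 0.2 EC50 from 1 to 5. Same-numbered libraries had correlations of -0.289 to 0.339 between their deviations from the group means over all contigs of at least 2 FPKM, so the numbers were not taken as pairs. Between 0.1 and 0.2 EC50 alone the correlations were 0.245, 0.272 and 0.339. The share of picked contigs on the expected side in an unused control, 84.6% over the 3 controls, was 76.7% with deposited values.

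The differences of the 5 named contigs moved by over 1 SD in 19 of 255 settings. Many of these settings left out a library of another dose, which can change a difference only through the scaling, so this share says little. The pseudocount of 0.1 moved TRINITY_DN13651_c0_g1_i1_3 and TRINITY_DN2864_c0_g1_i10_1 at all 3 doses and TRINITY_DN13214_c0_g1_i1_3 at 0.1 and 0.2 EC50. It moved neither of the 2 contigs with the highest control levels. FPKM without counts gives no depth, so counting error could not be set beside these values.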
